A study of Mus musculus with 8 samples.

Results

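Activated fibroblast and matrifibrocyte genes were followed across the 8 heart libraries of the study. The set holds 10 genes, chosen by symbol for what they mark in cardiac fibroblasts, of the 16994 genes in the deposited table. Of these, 6 are markers of the activated fibroblast or myofibroblast (Postn, Lrrc15, Cthrc1, Fap, Acta2, and Meox1), and 4 mark the matrifibrocyte (Comp, Chad, Cilp, and Cilp2). The 10 genes and the marker lists used below were chosen with earlier results of these data known. Counts of the set or of a list beside the share of all genes are therefore descriptions and no test of the set or list. All 10 passed the filter on low values (a mean of at least 1 CPM, estimated counts per 1000000 of the library), as did 12999 genes in all. Positions below are those of the whole gene on GRCm38, from the GENCODE annotation.

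The libraries came from male mice of 2 genotypes. WT mice carried the Tigar gene, and TKO mice lacked it in the whole body. How the TKO line was made is not given in the sources used here. Tigar encodes a phosphatase that lowers fructose-2,6-bisphosphate and thereby glycolysis. Myocardial infarction was set by tying off the left anterior descending artery at 16 weeks of age, and the infarct, border, and remote zones were cut from the infarcted hearts. The time from ligation to tissue collection for RNA is not given in the sources used here. A library labelled only as left ventricle was also made for each genotype, and the sources do not say whether it came from sham-operated mice, so it is called left ventricle here. Each genotype and region had 1 library. Infarct zone libraries held pooled RNA of 3 mice, and the number of mice behind the other libraries and the strain of the WT mice were not given in the sources used here.

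After an infarct, resident fibroblasts that hold the collagen network of the heart are activated, proliferate, and turn into contractile, matrix-secreting myofibroblasts. Once the scar has matured, many of them lose smooth muscle actin and persist as matrifibrocytes, a state named for its cartilage- and tendon-like matrix genes. Because whole tissue was sequenced, fewer cells of a type and less RNA per cell cannot be told apart in any value below.

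Estimated counts per library ran from 27429240 to 33799249. Tigar, the targeted gene, stood at 25.2 to 71.9 CPM in the 4 WT libraries and at 1.97 to 2.89 CPM in the 4 TKO libraries, with no overlap. CPM were scaled by TMM, a factor that brings the bulk of genes in the libraries to the same level, and the 2 infarct libraries needed the largest factors, 1.54 in WT and 1.26 in TKO, against 0.866 to 0.956 in the other 6. The summed CPM of 8 cardiomyocyte genes was 8121 in the WT infarct and 16651 in the TKO infarct, and it was 26293 to 35582 in the other libraries, with none of the 8 at 0. Summed CPM of 7 macrophage genes was 1416 and 1057 in the WT and TKO infarct and 269 to 520 elsewhere. These cell type levels moved with every infarct result below, and their part in it was not tested.

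The sequence before the start site is shown for 4 of the genes, since they stand for the patterns described below. Postn and Cilp were highest in the infarct zone with intermediate levels in the border and remote zones. Acta2 was high in the infarct zone alone, and Lrrc15 was lowest there. RefSeq windows on GRCm38.p6 were matched for 6 of the 10 genes, in 7 windows, and Comp, Cthrc1, Fap, and Meox1 were not matched. Each window holds the 250 bases upstream of the annotated start, written 5′ to 3′ on the strand of the gene. Capitals mark the letters of a searched motif on either strand.
Postn, chr3:54360857-54361106, plus strand: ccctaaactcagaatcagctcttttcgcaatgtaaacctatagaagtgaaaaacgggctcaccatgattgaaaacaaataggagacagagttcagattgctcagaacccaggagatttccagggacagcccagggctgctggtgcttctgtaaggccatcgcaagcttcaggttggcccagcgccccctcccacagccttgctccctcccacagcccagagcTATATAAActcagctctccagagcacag
Cilp, chr9:65264930-65265179, plus strand: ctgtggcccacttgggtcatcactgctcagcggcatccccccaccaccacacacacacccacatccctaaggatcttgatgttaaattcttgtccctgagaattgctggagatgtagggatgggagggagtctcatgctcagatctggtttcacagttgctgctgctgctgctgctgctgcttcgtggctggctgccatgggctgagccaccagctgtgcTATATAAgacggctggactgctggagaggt
Acta2, chr19:34255374-34255623, minus strand: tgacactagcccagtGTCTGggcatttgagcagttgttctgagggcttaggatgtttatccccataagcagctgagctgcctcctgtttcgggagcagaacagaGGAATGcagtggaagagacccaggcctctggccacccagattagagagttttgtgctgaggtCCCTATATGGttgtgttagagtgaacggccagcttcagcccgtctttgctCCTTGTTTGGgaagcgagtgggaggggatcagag
Lrrc15, chr16:30283255-30283504, minus strand: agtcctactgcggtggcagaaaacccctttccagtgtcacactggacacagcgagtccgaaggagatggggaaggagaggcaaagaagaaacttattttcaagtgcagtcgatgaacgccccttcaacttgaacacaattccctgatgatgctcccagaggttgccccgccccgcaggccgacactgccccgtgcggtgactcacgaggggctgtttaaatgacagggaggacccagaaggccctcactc
Postn and Cilp carried the letters TATATAA, a form of the TATA box, at 28 to 22 and 30 to 24 bases before the start, and 3.04% of 32851 mouse promoter windows of this length held them. In Postn they overlapped a match to the more common form TATAAA at 26 to 21, which 12.4% of the windows held. Acta2 held 2 CArG-like boxes, the binding letters of serum response factor with at most 1 G or C allowed inside, at 84 to 75 and 34 to 25 bases before the start, and 8.59% of all windows held at least 1. Acta2 also held 1 match each, on the opposite strand, to the TEAD letters CATTCC and the SMAD letters CAGAC, which 12.6% and 42.2% of all windows held. No searched motif was found in the Lrrc15 window. The windows not shown differed from this picture. A second Postn window, with its start at 54359267, held neither TATA form and had a SMAD match at 191 to 187. Cilp2 held neither TATA form, and it had a CArG-like box at 35 to 26 and 2 SMAD matches. Chad held TATAAA at 28 to 23. A match is a run of letters and not a measured binding site.

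Postn encodes periostin, the matricellular protein that marks activated cardiac fibroblasts. The gene lies at ENSMUSG00000027750, chr3:54361109-54391037, plus strand. Going from left ventricle to infarct, border, and remote zone, it read 48.2, 795, 450, and 217 CPM in WT and 39.0, 702, 151, and 72.1 CPM in TKO. Both genotypes therefore had their highest Postn in the infarct and their lowest in the left ventricle, and the remote zone stood 4.49-fold over the left ventricle for WT against 1.85-fold for TKO.

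Cthrc1 encodes a secreted collagen triple helix repeat protein made by the most strongly activated scar fibroblasts (ENSMUSG00000054196, chr15:39076932-39087121, plus strand). It stood at 0.365, 16.1, 4.38, and 1.31 CPM in the WT left ventricle, infarct, border, and remote zones. The TKO values were 0.270, 11.3, 1.18, and 0.299 CPM. The TKO left ventricle and remote values rest on 7 and 9 estimated counts, so that the difference between them was not detectable at this depth.

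Fap encodes fibroblast activation protein, a surface protease (ENSMUSG00000000392, chr2:62500943-62574075, minus strand). It read 3.61, 12.1, 7.56, and 5.69 CPM in the WT left ventricle, infarct, border, and remote zones, and 4.87, 9.82, 5.73, and 5.48 CPM in TKO. Its range over the 8 libraries was narrow, and the TKO border, TKO remote, and WT remote libraries lay close together.

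Meox1 encodes a homeobox transcription factor that acts in fibroblast activation (ENSMUSG00000001493, chr11:101877510-101894374, minus strand). WT levels were 10.7, 51.0, 31.3, and 23.0 CPM in left ventricle, infarct, border, and remote zones, and TKO levels were 13.5, 40.7, 17.1, and 13.6 CPM. In TKO the remote zone sat at the level of the left ventricle, and the border zone was only a little higher.

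Acta2 encodes smooth muscle alpha-actin, the contractile filament of the myofibroblast and of vascular smooth muscle (ENSMUSG00000035783, chr19:34241090-34255590, minus strand). In WT it was 79.8, 290, 80.3, and 80.7 CPM in left ventricle, infarct, border, and remote zones, and in TKO 68.8, 182, 95.3, and 78.5 CPM. The 6 libraries outside the infarct zone spanned 68.8 to 95.3 CPM, with no step from the left ventricle to the remote and border zones in WT. Relative to the geometric mean of 9 smooth muscle and pericyte genes of the same library, Acta2 was 7.72-fold in the WT infarct, 5.50-fold in the TKO infarct, and 3.34- to 4.08-fold in the other 6 libraries. None of those 9 genes was at 0 in any library, and their summed CPM was 716 and 837 in the infarct zone libraries and 957 to 1089 in the others. The sum was carried by the pericyte genes Rgs5 and Abcc9, which were at 0.628 and 0.265 of the left ventricle in the WT infarct and at 0.762 and 0.545 in the TKO infarct. The geometric mean of the list was 1.57-fold the left ventricle in the WT infarct and 1.96-fold in the TKO infarct. Its contractile genes Actg2, Cnn1, and Myh11 were 9.09-, 5.53-, and 3.32-fold in the WT infarct and 4.49-, 7.24-, and 2.49-fold in the TKO infarct. The part of smooth muscle cells in the Acta2 result was not tested.

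Lrrc15 encodes a leucine-rich repeat surface protein used as a marker of myofibroblasts in scars and tumors, and its level went against that label. The gene lies at ENSMUSG00000052316, chr16:30269302-30283256, minus strand. From left ventricle to infarct, border, and remote zone, WT libraries held 22.5, 5.81, 22.1, and 23.2 CPM and TKO libraries held 35.4, 10.9, 37.4, and 37.6 CPM. Both infarct libraries were therefore the lowest of their genotype, the other 3 regions of a genotype lay close together, and TKO was above WT in each region. Here Lrrc15 is reported by its name and not as a measure of activated fibroblasts.

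Among the matrifibrocyte genes, Comp encodes cartilage oligomeric matrix protein, which binds collagen fibrils (ENSMUSG00000031849, chr8:70373558-70382066, plus strand). Its highest and lowest libraries lay farther apart in fold than those of any other gene of the set, with 11.8 CPM in the WT left ventricle, 1272 in the infarct, 212 in the border, and 63.7 in the remote zone. TKO values were 11.3, 843, 68.6, and 24.4 CPM. The left ventricles of the 2 genotypes overlapped within counting error, and the 3 zones did not.

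Cilp encodes cartilage intermediate layer protein, a matrix protein that binds TGF-β1 (ENSMUSG00000042254, chr9:65265180-65280605, plus strand). It stood at 13.8, 358, 196, and 69.4 CPM in the WT left ventricle, infarct, border, and remote zones, and at 8.34, 362, 71.3, and 26.6 CPM in TKO. The infarct levels of the genotypes differed by less than counting error, unlike the border and remote levels.

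Cilp2 is a relative of Cilp (ENSMUSG00000044006, chr8:69880369-69887687, minus strand). WT levels were 0.730, 43.2, 12.7, and 6.51 CPM in the same order of regions, and TKO levels were 0.811, 30.9, 4.28, and 2.96 CPM. The left ventricle values rest on 20 and 21 estimated counts and could not be told apart.

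Chad encodes chondroadherin, a leucine-rich matrix protein of cartilage (ENSMUSG00000039084, chr11:94565047-94569127, plus strand). WT levels were 2.44, 28.8, 4.38, and 5.39 CPM in left ventricle, infarct, border, and remote zones, and TKO levels were 1.81, 8.22, 2.83, and 6.61 CPM. Chad and, by a far smaller margin, Lrrc15 were the genes of the set with more in the remote than in the border zone in both genotypes, and the Chad level of the TKO infarct was close to that of the TKO remote zone.

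**Figure D1:**
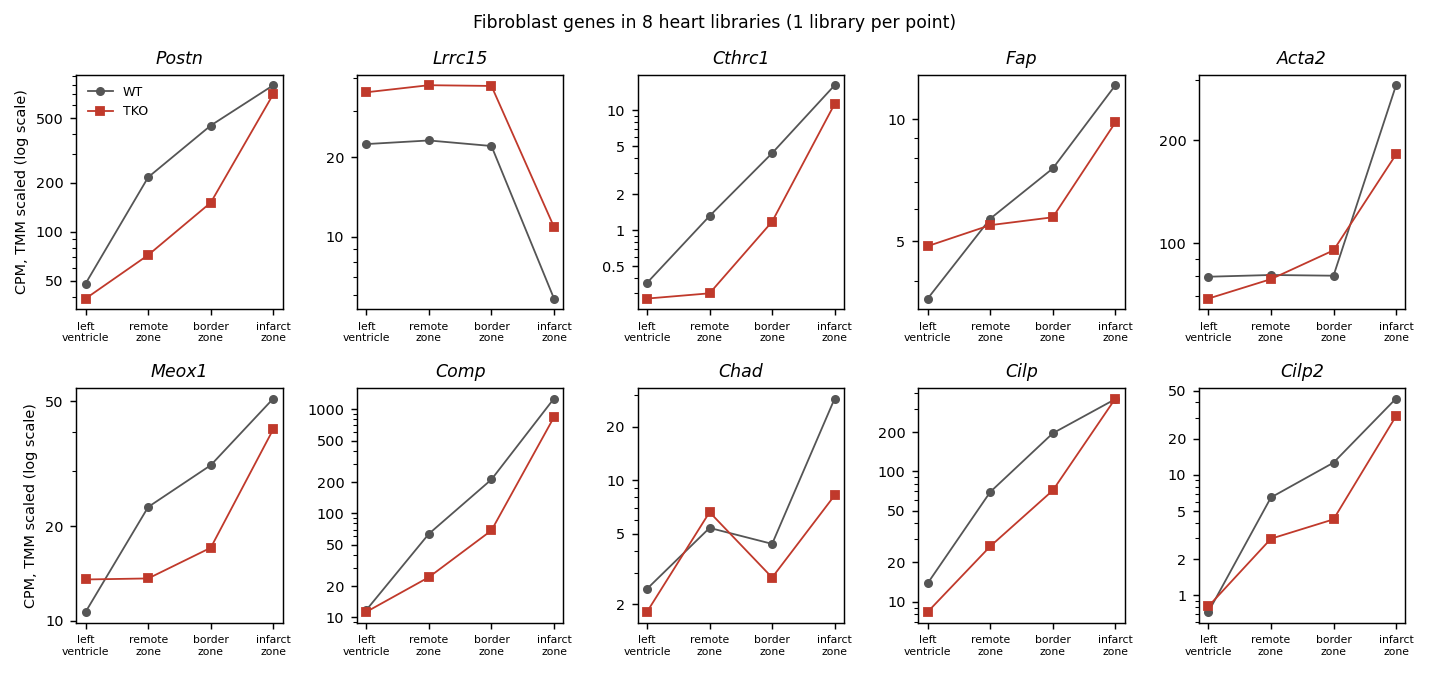
Level of each of the 10 genes in the 8 libraries, in CPM after TMM scaling on a log axis, with 1 point per library, WT as gray circles and TKO as red squares; lines only join the regions of a genotype. The genes other than Lrrc15 are highest in the infarct zone of both genotypes, Lrrc15 is lowest there, and Postn, Cthrc1, Comp, Cilp, and Cilp2 show the widest gap between WT and TKO in the border and remote zones.

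Levels were also divided by the merged length of all annotated exons of a gene, which can exceed the length of the transcripts present. That length was 8702 bases for Postn, 2967 for Comp, and 2196 for Acta2, and the order of genes below depends on it. Per kilobase on this scale, Comp was the most abundant of the set in the WT infarct at 429 CPM per kb. Acta2 followed at 132, Postn at 91.4, and Cilp at 84.2 CPM per kb, while Fap was at 2.14 and Lrrc15 at 1.10. In the WT left ventricle the order was different, with Acta2 at 36.3 CPM per kb, Postn at 5.54, Meox1 at 4.78, Lrrc15 at 4.23, Comp at 3.97, and Cilp at 3.25. Cthrc1 and Cilp2 were lowest there, at 0.229 and 0.169 CPM per kb. On this per-length scale 4 genes of the set were above Comp in the WT left ventricle and 0 in the WT infarct.

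The first comparison asked how the genes changed from the left ventricle to the infarct zone, with both genotypes in 1 fit. In it the genotypes stood in for replicates of a region, so that the test bears on these libraries and not on mice. Of the 10 genes, 9 were higher in the infarct zone and 1, Lrrc15, was lower, at an adjusted p under 0.05 (quasi-likelihood test of edgeR, Benjamini-Hochberg adjustment over 12999 genes). For all genes tested the shares called higher and lower were 28.2% and 28.6%. The matrifibrocyte genes Comp, Cilp2, and Cilp rose by log2 fold changes of 6.45 (SE 0.46), 5.61 (SE 0.40), and 5.14 (SE 0.42), and Chad rose by 2.99 (SE 0.49). Here and below, SE was worked back from the edgeR test. It is the absolute log2 fold change over the square root of the F statistic, and it does not measure spread between mice.

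Among the activated fibroblast genes, Cthrc1 rose by 5.51 on the log2 scale (SE 0.52) and Postn by 4.13 (SE 0.44), while Meox1, Acta2, and Fap rose by 1.89 (SE 0.28), 1.65 (SE 0.22), and 1.36 (SE 0.23). Lrrc15 fell by 1.82 (SE 0.10), with an adjusted p of 0.000248 by the edgeR test. As ratios of single libraries, Lrrc15 was 0.259-fold of its left ventricle level in the WT infarct and 0.308-fold in the TKO infarct, and the geometric mean of the cardiomyocyte genes was 0.223-fold and 0.481-fold. At least 2-fold higher than in the left ventricle of their own genotype were 9 genes in the WT infarct and 9 in the TKO infarct, and 18.8% and 16.2% of all genes tested were that much higher. Lrrc15 was at least 2-fold lower in both, as were 14.8% and 7.62% of all genes.

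Other genes of the same cell states went with the set. Of 29 other activated fibroblast genes tested, 26 passed as higher in the infarct zone and 0 as lower. Their median log2 fold change was 2.93, against 0.02 for all genes tested. Sfrp2, Ltbp2, and Col12a1 rose most, by 6.73, 5.89, and 5.36 on the log2 scale, and Fn1 (−0.19) and Ckap4 (0.37) did not pass. Of 13 other matrifibrocyte genes, 11 passed as higher and 0 as lower, their median was 3.05, and Angptl7, Ecrg4, and Fmod led them at 6.43, 5.91, and 5.51. Of 13 genes of resting fibroblasts, 10 were higher and Scara5 was lower, with a smaller median of 1.48. This list was wide in range. Its Mfap4 was 30.6-fold the left ventricle in the WT infarct and 17.6-fold in the TKO infarct, and Scara5 was 0.510-fold and 0.788-fold. The median over the 4 matrifibrocyte genes of the set was 5.37, and over its 6 activated fibroblast genes it was 1.77. In the other direction, 8 of 8 cardiomyocyte genes were lower, with a median of −1.52, and 7 of 7 macrophage genes were higher, with a median of 1.93. Of 9 smooth muscle and pericyte genes 5 were higher and 2 lower, of 5 epicardial genes 4 were higher, and of 5 endothelial genes 1 was lower. Of 6 cartilage, bone, and tendon genes that could be tested, 5 were higher. Among them Sox9, a chondrocyte transcription factor, rose by 3.11 on the log2 scale (SE 0.35). The summed CPM of this list was 30.2 and 51.6 in the infarct zone libraries and 4.21 to 12.4 in the others. Acan, Col2a1, and Tnmd had 3, 2, and 1 estimated counts in the WT left ventricle and 310, 454, and 182 in the WT infarct. The epicardial gene Msln had 0 and 213. Genes this low in the left ventricle passed the filter through libraries where they were high. The counts of genes called in these 2 lists are therefore no test of the lists.

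The second comparison asked how far the change reached beyond the infarct zone, into the tissue cut as border and remote zone. Against the left ventricle, 3 of the 10 genes passed the edgeR quasi-likelihood test in the border zone, all higher, and 0.669% of all genes tested were higher. These were Cilp, Comp, and Cilp2, with log2 fold changes of 3.49 (SE 0.39), 3.38 (SE 0.40), and 3.34 (SE 0.40) and an adjusted p of 0.0334 each in that edgeR test. Cthrc1 and Postn had log2 fold changes of 2.98 (SE 0.53) and 2.60 (SE 0.42) and did not pass, at adjusted p of 0.0710 and 0.0607 in the edgeR test. Both were called by DESeq2, at adjusted p of 4.3e-05 and 2.56e-10, which called 5 of the 10 genes, and 7 of the 10 had an unadjusted p under 0.05 in the edgeR test. Of all 12999 genes tested, DESeq2 called 576 in either direction, and 2333 had an unadjusted p under 0.05 by edgeR. Of the other activated fibroblast genes 8 of 29 were higher in the border zone, with a median log2 fold change of 1.16, led by Sfrp2 at 3.70, 22 had an unadjusted p under 0.05, and DESeq2 called 17. Of the other matrifibrocyte genes 5 of 13 were higher, with a median of 0.86, led by Angptl7 at 3.49, 10 had an unadjusted p under 0.05, and DESeq2 called 9. The median over all genes tested was −0.01. None of the 13 resting fibroblast genes passed the edgeR test, 5 had an unadjusted p under 0.05, and DESeq2 called 4.

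In the remote zone 0 of the 10 genes passed against the left ventricle by the edgeR quasi-likelihood test, and 0% of all genes did, although 5 of the 10 and 1378 of all genes had an unadjusted p under 0.05. DESeq2, run as an alternative, called 162 genes, and 4 of the 10, Cilp2, Cilp, Comp, and Postn, were among them. The log2 fold changes of these 4 were 2.55 (SE 0.41), 2.03 (SE 0.37), 1.74 (SE 0.39), and 1.54 (SE 0.41). Acta2 and Lrrc15 were at 0.10 (SE 0.21) and 0.07 (SE 0.10) in the same comparison.

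All 10 genes also passed between the infarct zone and the border zone and between the infarct zone and the remote zone, 9 higher and Lrrc15 lower in each. The shares of all genes called higher and lower were 21.6% and 21.9% against the border zone and 24.6% and 24.8% against the remote zone. Comp differed most, by 3.07 (SE 0.39) and 4.71 (SE 0.42) on the log2 scale, and Fap least of those higher, by 0.72 (SE 0.22) and 0.97 (SE 0.22). Between border and remote zone 0 of the 10 genes passed by edgeR, and 0% of all genes did, with 5 of the 10 and 497 of all genes at an unadjusted p under 0.05. DESeq2 called 59 genes there, including Comp and Cilp.

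Of the 10 genes, 7, namely Postn, Cthrc1, Fap, Meox1, Comp, Cilp, and Cilp2, had the order infarct over border over remote over left ventricle in both genotypes. The same order held for 7.61% of all genes tested, and neighboring steps of it were within counting error for some of the 7, such as Cthrc1 between the TKO remote zone and left ventricle. These counts describe 8 libraries and are not a test.

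The size of the steps outside the infarct zone differed between the genotypes in the libraries at hand, and the counts below carry no test of that difference. In the WT border zone 7 genes were at least 2-fold above the WT left ventricle (Postn, Cthrc1, Fap, Meox1, Comp, Cilp, and Cilp2), while 5.39% of all genes tested were. In the TKO border zone 5 were at least 2-fold above the TKO left ventricle (Postn, Cthrc1, Comp, Cilp, and Cilp2), against 4.38% of all genes. In the remote zone the counts were 7 in WT (Postn, Cthrc1, Meox1, Comp, Chad, Cilp, and Cilp2) and 4 in TKO (Comp, Chad, Cilp, and Cilp2), against 3.4% and 3.06% of all genes. The comparisons of a genotype share its 1 left ventricle library.

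Comp was 18.0-fold over the left ventricle in the WT border zone and 6.06-fold in the TKO border zone, and Cilp2 was 17.3-fold and 5.28-fold. Cthrc1 was 12.0-fold and 4.37-fold. Meox1 was 2.93-fold in the WT border zone and 1.26-fold in the TKO border zone, and 2.16-fold and 1.01-fold in the remote zones. In the infarct zone the folds over the left ventricle in WT and TKO were 44.1 and 41.7 for Cthrc1, 25.9 and 43.4 for Cilp, and 11.8 and 4.53 for Chad.

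The main comparison of the study, TKO against WT, was made within each region, where no test is possible with 1 library a group. Ratios carry 95% exact binomial intervals, which cover counting error only. The sources used here mention no molecular identifiers, so that counts cannot be taken as independent molecules, and mice were not replicated. In the left ventricle 0 of the 10 genes were at least 2-fold lower in TKO, and 3.56% of all genes tested were. Comp (0.960, interval 0.817 to 1.13), Cthrc1, Chad, and Cilp2 had intervals that include 1, and Cilp was the lowest at 0.603 (0.508 to 0.715). Postn and Acta2 were at 0.808 (0.744 to 0.878) and 0.863 (0.810 to 0.919), and Fap and Meox1 were higher in TKO there, at 1.35 (1.03 to 1.77) and 1.27 (1.08 to 1.49).

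In the infarct zone 1 gene was at least 2-fold lower in TKO, Chad at 0.285 (0.250 to 0.324), and 1.45% of all genes were. Acta2 was at 0.627 (0.609 to 0.646), Comp at 0.663 (0.653 to 0.672), Cthrc1 at 0.700 (0.618 to 0.793), and Cilp2 at 0.715 (0.663 to 0.771). Fap and Meox1 were at 0.810 (0.705 to 0.929) and 0.799 (0.747 to 0.854). Postn was at 0.882 (0.868 to 0.897) and Cilp at 1.01 (0.987 to 1.03), and with scaling by total counts these were 0.720 and 0.824. That scaling lowered the other ratios of this zone as well, and it moved the median of all genes by −0.29 on the log2 scale. The intervals do not cover this choice of scaling. With TMM scaling the TKO infarct thus held nearly as much Postn and Cilp as the WT infarct and less Acta2, Comp, and Chad, beside a 2.08-fold higher geometric mean of the cardiomyocyte genes.

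In the border zone 5 of the 10 genes were at least 2-fold lower in TKO, and 3.25% of all genes tested were. They were Cthrc1 at 0.269 (0.180 to 0.393), Comp at 0.324 (0.308 to 0.340), Postn at 0.336 (0.325 to 0.348), Cilp2 at 0.338 (0.275 to 0.414), and Cilp at 0.364 (0.347 to 0.383). Meox1 was at 0.546 (0.489 to 0.608), Chad at 0.646 (0.486 to 0.855), and Fap at 0.758 (0.618 to 0.928), all lower beyond counting error. Acta2 was at 1.19 (1.12 to 1.25) in the other direction.

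In the remote zone the same 5 genes were at least 2-fold lower in TKO, and 2.36% of all genes were. The ratios were 0.227 for Cthrc1 (0.0970 to 0.476), 0.333 for Postn (0.317 to 0.349), 0.383 for Comp (0.351 to 0.417), 0.383 for Cilp (0.352 to 0.415), and 0.454 for Cilp2 (0.350 to 0.586). Meox1 was at 0.592 (0.523 to 0.670). Fap, Acta2, and Chad had intervals that include 1, at 0.964, 0.972, and 1.23.

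**Figure D2:**
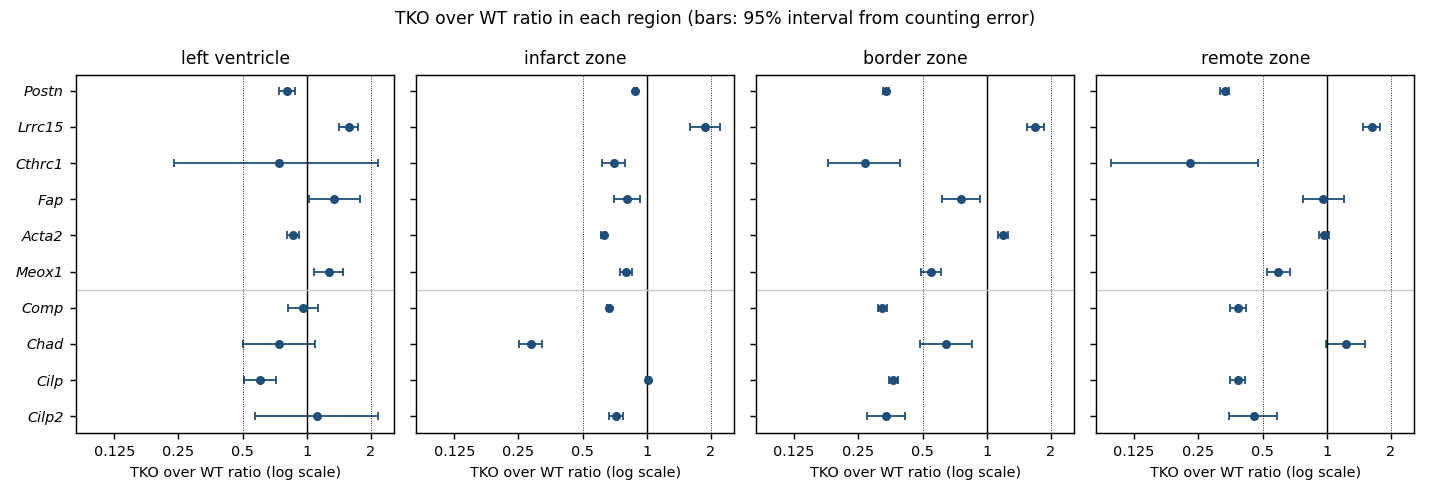
TKO over WT ratio of each gene in the 4 regions on a log axis, 1 ratio of 2 libraries per point, with bars for the 95% counting-error interval and dotted lines at 2-fold lower and higher. Postn, Cthrc1, Comp, Cilp, and Cilp2 lie below 0.5 in the border and remote zones, only Chad does in the infarct zone, and Lrrc15 lies above 1.5 in all 4 regions.

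Lrrc15 was the only gene of the set above WT in TKO in all 4 regions, with ratios of 1.57 (1.42 to 1.75) for left ventricle, 1.87 (1.59 to 2.20) for infarct, 1.69 (1.54 to 1.86) for border, and 1.62 (1.48 to 1.78) for remote zone. That pattern held for 13.2% of all genes tested, and 19 genes, Lrrc15 among them, had a lowest ratio of at least 1.57 over the 4 regions. The geometric mean of the cardiomyocyte genes had TKO over WT ratios of 0.961, 2.08, 1.24, and 1.16 in the same order of regions. In the left ventricle the 8 genes ranged from 0.666 for Myh6 to 1.29 for Ckm, and their part in the Lrrc15 difference was not tested.

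When the genotype was tested over all 8 libraries with the 4 regions standing in for replicates, Lrrc15 was the 1 gene of the 10 that passed. It was higher in TKO by a log2 fold change of 0.75 (SE 0.07), in 4 of 4 regions, with an adjusted p of 0.0421 (edgeR, quasi-likelihood, Benjamini-Hochberg). Of all genes tested, 0.0769% were called higher and 0.0615% lower. The call was lost when the 2 libraries of the infarct, border, or remote zone were left out, at adjusted p of 0.185, 0.310, and 0.280 by the edgeR test, with log2 fold changes of 0.70, 0.75, and 0.77. The sources do not tie libraries to animals, so libraries of a genotype may share mice. The p-values of this genotype test would then be too small. How sharing bears on the tests between regions depends on which libraries share mice, which is not given.

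None of the other 9 genes passed the genotype test. The log2 fold changes were −1.23 (SE 0.33) for Cthrc1, −0.94 (SE 0.26) for Comp, −0.91 (SE 0.29) for Postn, −0.90 (SE 0.24) for Cilp2, and −0.89 (SE 0.26) for Cilp, with adjusted p between 0.202 and 0.236 by the edgeR test. Chad, Meox1, Acta2, and Fap were at −0.68 (SE 0.34), −0.42 (SE 0.20), −0.17 (SE 0.15), and −0.10 (SE 0.16). DESeq2 called 4 of the 9, Comp, Cilp, Postn, and Cthrc1, as lower in TKO, and 5 of the 9 had an unadjusted p under 0.05 in the edgeR test. Of all 12999 genes tested, DESeq2 called 342 in either direction, and 2109 had an unadjusted p under 0.05 by edgeR.

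Genes of the same cell states had log2 fold changes of the same sign without passing. Of the 29 other activated fibroblast genes 0 passed by edgeR and 28 were below 0, with a median of −0.48 against 0.00 over all genes tested. An unadjusted p under 0.05 was found for 17 of them, and DESeq2 called 8. The lowest was Lox, the collagen cross-linking enzyme lysyl oxidase, at −1.11 (SE 0.13), with an adjusted p of 0.0634 in the edgeR test, and the highest was Fn1 at 0.51 (SE 0.50). Of the 13 other matrifibrocyte genes 0 passed by edgeR, 9 had an unadjusted p under 0.05, DESeq2 called 5, and 12 were below 0, with a median of −0.51, and Ecrg4 was lowest at −1.04 (SE 0.15). The median over 13 resting fibroblast genes was −0.13. Of 5 epicardial genes 0 were above 0, with a median of −1.02, and of 6 cartilage, bone, and tendon genes 0, with a median of −0.69. Some genes of these 2 lists had 3 or fewer estimated counts in a library. Smooth muscle and pericyte genes were above 0 in 3 of 9 cases (median −0.18), and endothelial genes in 3 of 5 (median 0.00). Cardiomyocyte genes were above 0 in 8 of 8 cases with a median of 0.36, and macrophage genes below 0 in 7 of 7 with a median of −0.42, of which Ptprc, the pan-leukocyte surface phosphatase CD45, passed as lower. In the border zone alone, 14 of the 29 other activated fibroblast genes and 6 of the 13 other matrifibrocyte genes were at least 2-fold lower in TKO. In the remote zone the counts were 5 and 1, and in the infarct zone 0 and 1. The shares of all genes tested were 3.25% in the border, 2.36% in the remote, and 1.45% in the infarct zone. These are ratios of single libraries without a test.

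**Figure D3:**
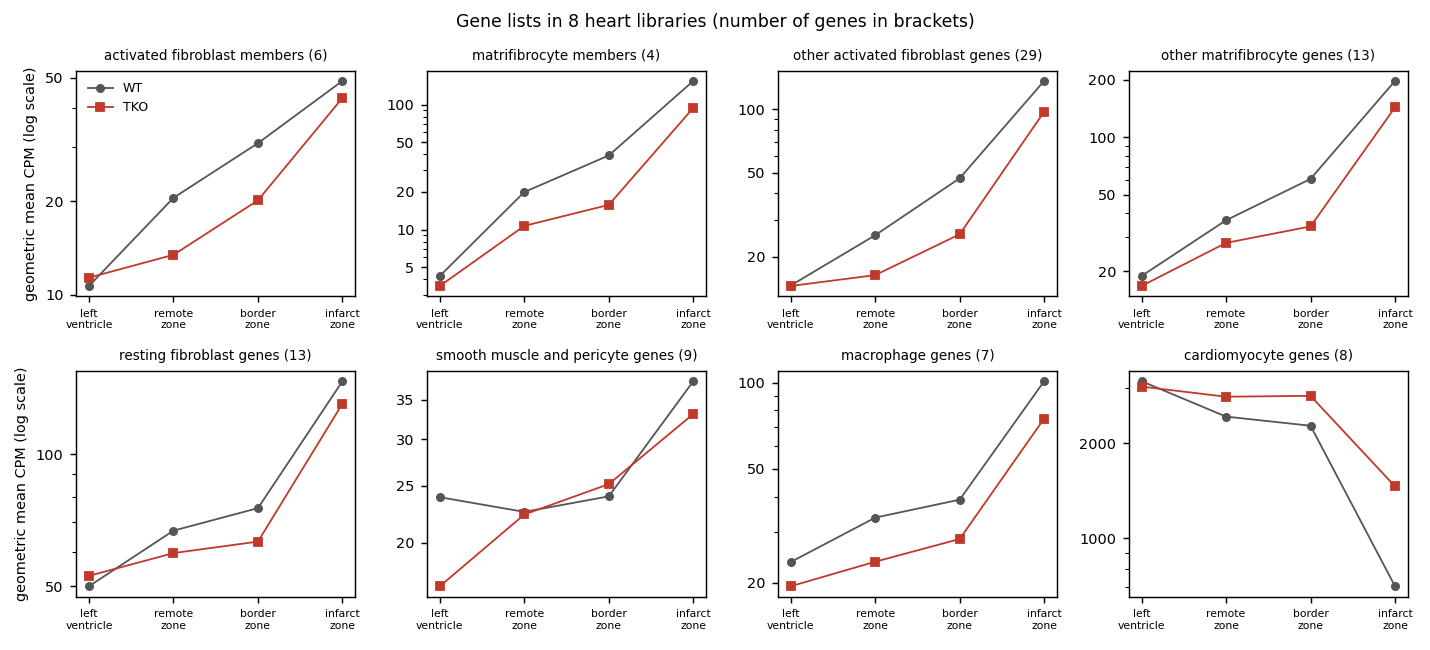
Geometric mean CPM of 8 gene lists in the 8 libraries on a log axis, WT as gray circles and TKO as red squares, with the number of genes in brackets; lines only join the regions of a genotype. The fibroblast and macrophage lists are highest in the infarct zone of both genotypes, and the cardiomyocyte list is lowest there.

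Whether the TKO minus WT difference in the border and remote zones departed from that in the infarct zone and left ventricle was tested as an interaction, with a split that was chosen with the Postn values known. The values of Postn, and those of Cthrc1, Meox1, Comp, Cilp, and Cilp2, whose levels ran with Postn over the 8 libraries (r of 0.972 to 0.993), are therefore descriptions. None of the 10 genes passed by the edgeR quasi-likelihood test, and 0% of all genes did, with 6 of the 10 and 572 of all genes at an unadjusted p under 0.05. Those 6 were the genes just named, so that their count is a description as well and no test of the set. The log2 differences were −1.48 (SE 0.33) for Cthrc1, −1.34 (SE 0.19) for Postn, −1.16 (SE 0.26) for Comp, −1.09 (SE 0.28) for Cilp, −1.02 (SE 0.27) for Cilp2, and −0.80 (SE 0.24) for Meox1. Lrrc15 was at −0.04 (SE 0.15), and Chad and Acta2 were above 0 at 1.11 (SE 0.55) and 0.55 (SE 0.23). DESeq2 called 24 of all genes.

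To set the genes against other fibroblast RNA in each library, their levels were divided by the geometric mean of Pdgfra, Tcf21, Ddr2, and Dcn. All of these also belong to the list of resting fibroblast genes. How far this reference follows the amount of fibroblasts in each state was not tested. TKO over WT of that reference itself was 1.22, 0.757, 0.778, and 0.912 in left ventricle, infarct, border, and remote zone. After division, TKO over WT was 0.432 for Postn, 0.359 for Cthrc1, 0.416 for Comp, 0.468 for Cilp, and 0.439 for Cilp2 in the border zone. The 5 genes were at 0.365, 0.288, 0.421, 0.420, and 0.504 in the remote zone. All 5 therefore read at 0.504 or lower after division in both zones. In the left ventricle they were at 0.664, 0.640, 0.789, 0.497, and 0.905, in the same order of genes. Cilp was thus near its border zone value there as well.

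In the infarct zone the same division brought Comp to 0.875, Cthrc1 to 0.927, Cilp2 to 0.946, and Acta2 to 0.829, and Postn and Cilp to 1.17 and 1.33. Chad stayed at 0.379. Fap was between 0.976 and 1.10 in all 4 regions, and Lrrc15 was above 1 in all 4, from 1.29 to 2.46.

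**Figure D4:**
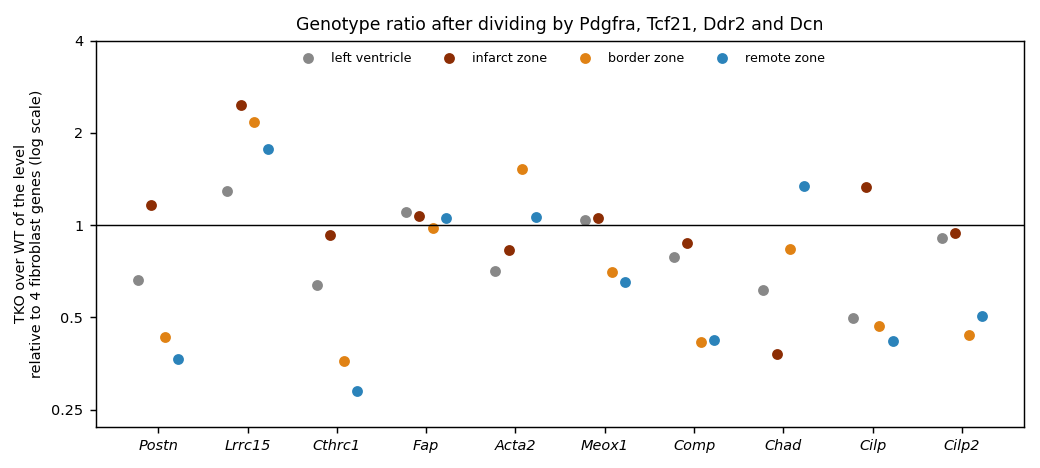
TKO over WT ratio of each gene after division by the geometric mean of Pdgfra, Tcf21, Ddr2, and Dcn in the same library, on a log axis, with 1 point per region. Fap lies near 1 in every region, and Lrrc15 lies above 1 throughout. Postn, Cthrc1, Comp, Cilp, and Cilp2 lie between 0.288 and 0.504 in the border and remote zones. In the left ventricle they lie between 0.497 (Cilp) and 0.905 (Cilp2).

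Across the 8 libraries, the 36 pairs of genes without Lrrc15 had Pearson correlations of log2 CPM from 0.752 to 0.993 (median 0.939), and the 9 pairs with Lrrc15 had −0.921 to −0.738. These are descriptions over 8 libraries that share the same infarct to left ventricle axis. Among the 3 genes nearest to each in pattern were Thbs4 (r = 0.993) and Cilp (0.993) for Postn, Sfrp2 (0.999), Igfbp6 (0.997), and Mfap4 (0.997) for Comp, and Ccn5 (0.996), Mefv (0.995), and Ccn4 (0.992) for Cilp2. For Cilp they included Postn (0.993) and Ltbp2 (0.991). For Meox1 they were Col8a1 (0.996), Ctsk (0.996), and Loxl2 (0.994), for Cthrc1 Shc2 (0.997), Srpx2 (0.995), and P4ha3 (0.994), and for Fap Glipr2 (0.995), Tnfrsf11b (0.995), and Kif26b (0.993). Mfap4, named here for Comp, is on the list of resting fibroblast genes.

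Acta2 was nearest to Gk5 (0.996), Bcr (0.995), and Scube3 (0.995), and Chad was nearest to Mcoln2 (0.987), Arid4a (0.975), and Dmtf1 (0.973), the loosest match of the 10. Lrrc15 was nearest to Kpna6 (0.995), Fig4 (0.993), and Rita1 (0.993), so that no gene of the set, and no gene of the other fibroblast lists, was among its 3 nearest.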

How the data were processed

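RNA-seq was analysed for 8 libraries, 1 per genotype and region, from the hearts of male mice. The authors removed adapters with Trim Galore 0.6.5, estimated transcript abundance with kallisto 0.46 on mm10 and summed it to genes with tximport, and they deposited the estimated counts as whole numbers without normalization. From these, edgeR 4.0.16 in R 4.3.3 gave TMM factors and CPM, over 12999 genes averaging a CPM of 1 or more. A gene was counted as 2-fold apart after a prior count of 2. Region and genotype effects were tested with edgeR's quasi-likelihood test on an additive model, with 3 residual degrees of freedom, at an adjusted p of 0.05 over all genes. DESeq2 1.42.0, total-count scaling, other filters and prior counts, and leaving out a region were alternatives. The R code was tested on simulated data. The 10 genes and the marker lists were chosen with earlier results of these data known. By rule, all 10 genes are given in every library, at most the 3 highest and 3 lowest genes of each other list are named per test, together with Tigar and the 3 genes nearest in pattern to each of the 10. A gene that this rule names is not reported here.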

Additional observations from a re-analysis of the deposited data

Results flagged for a closer look

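For 3 genes the TKO over WT ratio lay on opposite sides of 1 in different regions, beyond the counting error of each ratio. The differences between regions were not tested. Fap was at 1.35 in the left ventricle and 0.758 in the border zone. Meox1 was at 1.27 in the left ventricle and 0.546 in the border zone. Acta2 was at 0.627 in the infarct zone and 1.19 in the border zone.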

How the results depend on the processing

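The labels give no replicate numbers, so no fit with a replicate block was run, and region was a term of the genotype fit. DESeq2 called 5 genes for TKO against WT (1 higher and 4 lower), 5 for the border zone against the left ventricle, 4 for the remote zone against the left ventricle, 2 for border against remote, and 2 for the interaction. Those of the interaction were Postn and Comp, whose values there are descriptions. Scaling by total counts also gave 5 genes for border against left ventricle, and it turned the Lrrc15 log2 difference to 0.0037 between border and remote zone and to 0.039 in the interaction, from −0.04 in both. It moved the median of all genes by −0.29 (log2) for TKO against WT in the infarct zone, by 0.82 for the WT infarct and 0.53 for the TKO infarct against the left ventricle, and by 0.14 for the WT border zone. Without the infarct, border, or remote zone 0 genes passed the genotype test, against 1 without the left ventricle, and without the border zone the Fap value for genotype was 0.0073. Of the other recomputed counts of genes, 93 were within 1.5 times the value reported. Causes were not tested. Precision is limited by 1 library a group and, for Cthrc1, Cilp2, and Chad outside the infarct zone, by few counts.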
